A study of Mus musculus with 6 samples.

Results

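The comparison described here is that of astrocyte cultures washed out after treatment with a GSK-3 inhibitor against cultures taken at the end of that treatment. It was chosen by the treatments in the sample labels and uses 4 of the 6 arrays of the study. All arrays were hybridised with RNA of primary astrocytes grown from the cortex and striatum of wild-type C57BL/6J mouse pups aged 1 day. Ro cultures (n = 2) received 1 µM Ro3303544, an inhibitor of GSK-3, for 48 h from 13 days in vitro and were harvested at 15 days. Washout cultures (n = 2) received the same 48 h treatment, were then kept for 48 h in growth medium without the inhibitor, and were harvested at 17 days. Control cultures (n = 2), which are given only beside the comparison, were kept in medium with 10% serum, with an equal amount of DMSO according to the protocol. Their sample titles give no duration, and they are taken to have been kept for the time of the treatment and harvested at 15 days. All cultures had been exposed to 5 µM AraC, which removes dividing cells, for 2 days around day 7, and staining for Iba1, a microglial protein, at day 12 marked under 1% of cells.

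The design limits what the comparison can show. Washout cultures were 2 days older than Ro cultures at harvest, and no culture was kept in Ro3303544 over those 2 days. The Ro and control arrays shared slide 1 and both washout arrays lay on slide 2, so that washout, age and slide cannot be told apart for any gene. Nothing in the labels tells if both cultures of each group were prepared separately, so the p-values measure the spread between these samples, which may be technical. In bulk RNA, fewer cells of a type and less RNA per cell cannot be told apart.

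GSK-3 is a kinase that phosphorylates beta-catenin within a complex built on Axin and APC and so marks it for destruction. When the kinase is blocked, beta-catenin accumulates, enters the nucleus and activates genes through the TCF/LEF factors, among them genes that feed back on the Wnt pathway. GSK-3 also phosphorylates glycogen synthase, Myc, microtubule proteins and many other substrates, so that its inhibition reaches beyond Wnt signalling.

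Each array had 60.4% to 65.2% of its probes well above background and a 75th percentile of processed intensity from 631 to 807. Precision is limited by the small number of arrays. A bright streak raised dim spots on the washout arrays, with 3.91% of the spots of washout 1 and 0.82% of those of washout 2, and the 1917 probes in it were set aside. Levels below are log2 processed intensities relative to the array's 75th percentile, and a change is the difference of the group means, washout minus Ro, ± the standard error from limma. A gene is said to have risen or fallen only where limma's Benjamini-Hochberg adjusted p, over all 18758 features tested, was under 0.05. RNA integrity numbers were at least 6.5 according to the protocol. The difference between the replicates of a feature had a median size of 0.083 in Ro and 0.13 in washout, and the median size of a change was 0.31.

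Many transcripts differed between the end of treatment and 48 h of washout. Of the 18758 features, 4085 (21.8%) had a higher level in washout than in Ro, and 4051 (21.6%) a lower one. The difference reached 2-fold for 1159 (6.18%) of the former and for 956 (5.10%) of the latter. The arrays of the 2 groups did not overlap for 14158 features (75.5%). Without Ro 1 the calls fell to 2623 higher and 2215 lower, and without Ro 2 those lower fell to 2321. In the authors' deposited table, which centres the arrays differently, the median of all changes moved from -0.030 to -0.13 and the calls to 3124 higher and 5212 lower. Ro against control, which shares the Ro arrays, gave 3912 features higher (20.9%) and 4284 lower (22.8%), and washout against control gave 786 higher (4.19%) and 1127 lower (6.01%).

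Among named genes well above background on all 4 arrays, the 15 largest falls were of Sp5, Notum, Lef1, Rnf43, Nkd1 and Sfrp2 of the Wnt pathway, and of Dapk2, Dio2, Cxcr6, Dapl1, Adamts18, Calcrl, Rnase1, Fabp3 and Cadps. They ranged from -6.21 for Sp5 to -3.75 for Cadps. Among the 15 largest rises were Cnmd, B3galt5, Npvf, Ucma, Nppc and Adra2a, from 4.11 for Cnmd to 2.73 for Rassf4. In all 30 genes both Ro arrays stood apart from the control and the washout arrays. In every gene named below as risen or fallen, both Ro arrays lay on one side of both washout arrays.

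**Figure D1:**
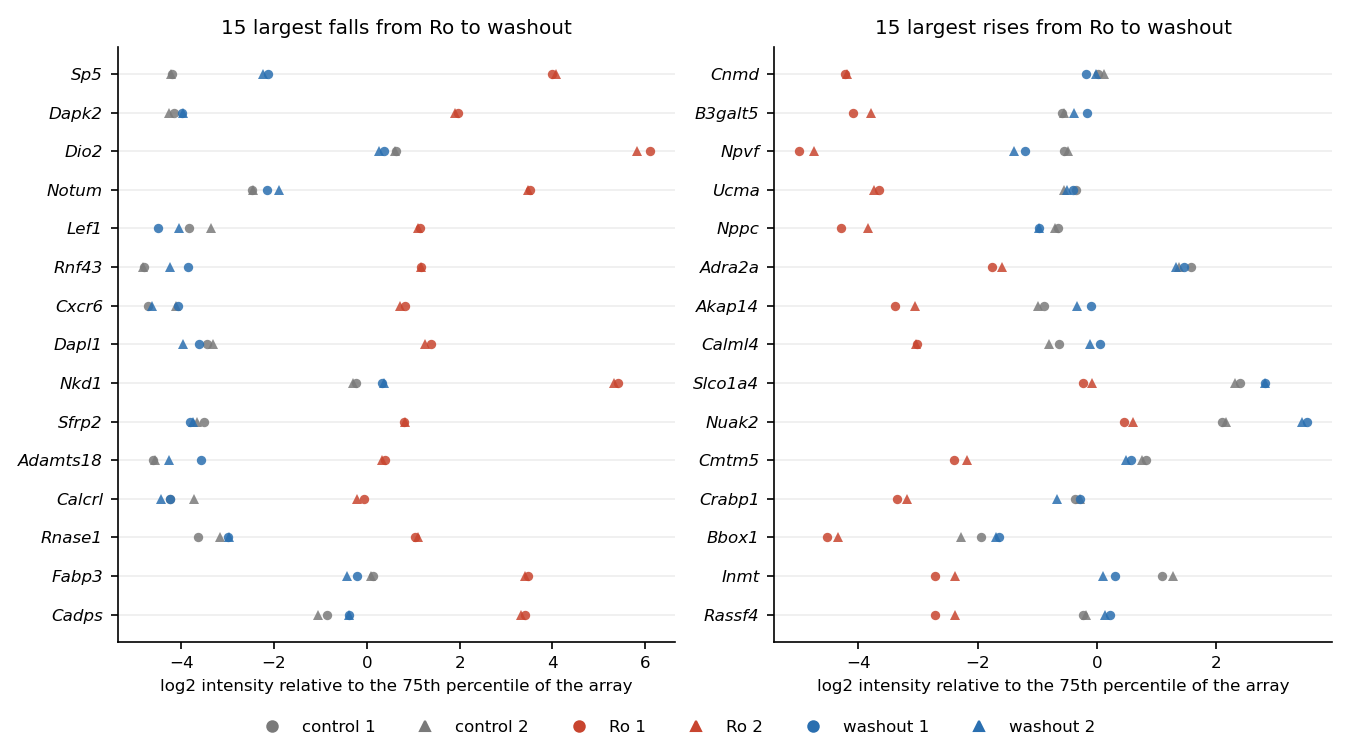
Log2 intensity relative to the 75th percentile of the array (x axis) for the 15 largest falls and the 15 largest rises from Ro to washout, with 1 point per array. Ro arrays (red) stand to the right of washout arrays (blue) in the left panel and to the left of them in the right panel, and control arrays (grey) lie nearer to washout than to Ro.

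The feedback inhibitors of the Wnt pathway fell. Of 18 measured, 15 fell and 1 rose, where 21.6% of all features fell and 21.8% rose. Over the alternative settings 10 to 15 members fell, and the list median lay between -2.82 and -1.64. Members such as Wif1 and Apcdd1 passed the filter only through the Ro arrays, where they are high, so their falls follow in part from the filter. The median change was -2.71 (-2.52 with genes below background set at their bound) against -0.030 over all features, and 13 of the 18 fell at least 2-fold, as did 5.10% of all features. Against control, 4 were higher and 6 lower in washout (4.19% and 6.01% of all features), and 14 were higher and 2 lower in Ro (20.9% and 22.8%). Both comparisons share arrays with the main one. These shares of all features stand beside every count of list members below, and a list whose shares lie near them shows no direction of its own. A further 4 members of the list, Dkk1, Dkk4, Kremen2 and Sfrp5, were not well above background in the arrays that decide the filter.

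Axin2, a scaffold of the destruction complex that the pathway itself induces, measured 2.76 and 2.66 in Ro, -0.20 and -0.042 in washout and -1.73 and -1.44 in control. It fell by 2.83 ± 0.12 (7.11-fold, adjusted p = 0.00014), and the washout arrays lay above the control arrays by 1.46 (adjusted p = 0.0083). Nkd1, which binds Dishevelled and dampens the signal, measured 5.41 and 5.32 in Ro, 0.33 and 0.37 in washout and -0.24 and -0.29 in control, a fall of 5.01 ± 0.074 (32.3-fold, adjusted p = 1.5e-05). Both thus stood between control and Ro after washout, without overlap with either.

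Notum, a secreted enzyme that removes the lipid from Wnt ligands, measured 3.51 and 3.48 in Ro, -2.16 and -1.89 in washout and -2.47 and -2.45 in control. It fell by 5.52 ± 0.11 (45.9-fold, adjusted p = 2.7e-05). Rnf43, a ubiquitin ligase that removes Frizzled receptors from the membrane, measured 1.16 and 1.16 in Ro, -3.86 and -4.23 in washout and -4.81 and -4.82 in control and fell by 5.20 ± 0.13 (adjusted p = 4.8e-05). Sfrp2, a secreted Wnt-binding protein, measured 0.80 and 0.82 in Ro, -3.81 and -3.75 in washout and -3.51 and -3.65 in control and fell by 4.59 ± 0.081 (adjusted p = 2.6e-05). For these 3 genes the Ro arrays were the high ones, and the washout arrays differed from control by 0.44, 0.77 and -0.21, of which the adjusted p-values were 0.064, 0.029 and 0.17.

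Wif1 and Apcdd1, which bind Wnt ligands or their receptors outside the cell, were well above background in Ro and on neither washout array. Against the lowest signal well above background, or its own signal where higher, Wif1 was at least 48.2-fold lower in washout. Apcdd1 was at least 37-fold lower. Sfrp1 was the member of the list that rose: it measured 2.12 and 2.25 in Ro, 2.94 and 2.89 in washout and 2.74 and 2.64 in control, a change of 0.73 ± 0.082 (adjusted p = 0.0018).

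**Figure D2:**
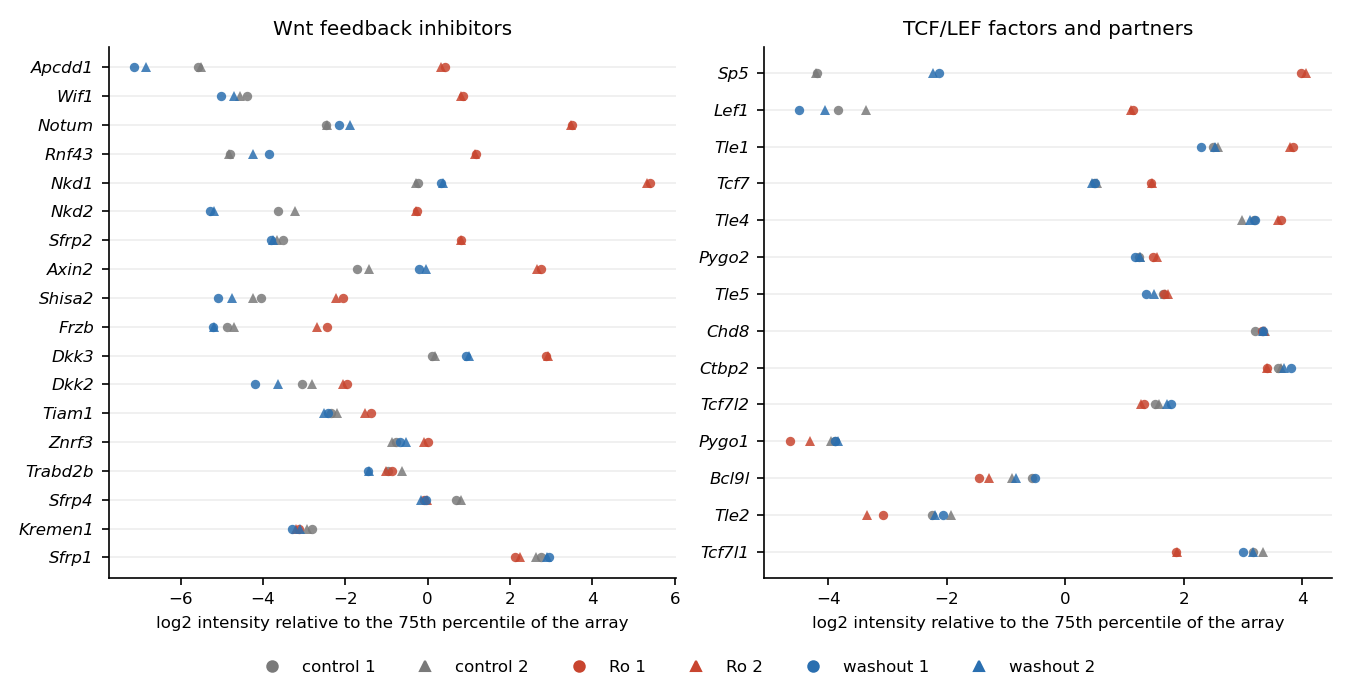
Log2 intensity relative to the 75th percentile of the array for the 18 measured Wnt feedback inhibitors and the 14 measured TCF/LEF factors and partners, ordered by their change, with 1 point per array. Most inhibitors are highest in Ro (red), while the TCF/LEF list holds genes on both sides.

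Among the nuclear factors of the pathway, Sp5 and Lef1 fell while repressing partners changed in both directions. Sp5, a zinc finger factor that beta-catenin induces and that restrains the response, measured 3.98 and 4.07 in Ro, -2.14 and -2.23 in washout and -4.19 and -4.22 in control. The change was -6.21 ± 0.076 (74-fold lower in washout, adjusted p = 1.3e-05). Washout arrays still lay 2.02 above control (adjusted p = 0.0026). Lef1, a DNA-binding partner of beta-catenin that is itself a target, measured 1.15 and 1.11 in Ro, -4.49 and -4.05 in washout and -3.83 and -3.37 in control and fell by 5.40 ± 0.21 (adjusted p = 0.00011). Its washout and control arrays did not overlap, with washout the lower, at a difference of -0.67 that did not pass the test (adjusted p = 0.11).

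Of the 14 measured TCF/LEF factors and partners 7 fell and 6 rose (median change -0.13, 4 lower without Ro 1, 3 higher and 4 lower without Ro 2). Tcf7l1, the family member that acts mainly as a repressor, rose by 1.22 ± 0.10, from 1.86 and 1.89 in Ro to 3.00 and 3.18 in washout. The co-repressor Tle1 fell by 1.42 ± 0.10, and its relative Tle2 rose by 1.08 ± 0.15.

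The promoter of Sp5 is shown because this gene had the largest of these falls. It is the window from 250 bases upstream to the base before the start in RefSeq (GRCm38.p6), chr2:70474673-70474922 on the + strand. The capitals mark the TCF/LEF motif, searched as CTTTGAT or CTTTGTT on both strands (AACAAAG is CTTTGTT on the other strand), which occurs 2 times, from bases -222 and -104 relative to the start.
Sp5: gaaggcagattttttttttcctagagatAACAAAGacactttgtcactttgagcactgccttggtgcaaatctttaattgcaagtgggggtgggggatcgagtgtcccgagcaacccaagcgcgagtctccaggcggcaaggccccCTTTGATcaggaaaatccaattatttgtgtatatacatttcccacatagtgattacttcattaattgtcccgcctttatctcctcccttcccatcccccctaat
The motif was found in the promoters of 2 of 12 members of this list with a RefSeq promoter. Of 10 members of the feedback inhibitor list, 1 had it, Tiam1. It was present in 8.06% of all RefSeq promoter windows of this length and in 6.88% of those of the features tested. A match is a description of these letters, and nothing was measured on binding.

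Wnt ligands and receptors changed in both directions. Of 27 measured, 10 rose and 8 fell (median change 0.015, -0.090 to 0.052 over the alternatives). Fzd10, a Wnt receptor, measured 3.15 and 3.15 in Ro, -0.038 and -0.0039 in washout and -0.73 and -0.77 in control and fell by 3.17 ± 0.067 (adjusted p = 3e-05). Rspo1, a secreted enhancer of Wnt signalling, measured 2.55 and 2.51 in Ro, -0.13 and -0.28 in washout and -0.58 and -0.52 in control and fell by 2.73 ± 0.085. Lgr6, an R-spondin receptor, measured -2.79 and -2.76 in Ro and -6.13 and -4.82 in washout and fell by 2.70 ± 0.41 (adjusted p = 0.0047), with its washout arrays far apart and 1 of them well above background. The ligand Wnt6 was on neither washout array well above background and at least 1.44-fold lower.

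The transcripts of the kinase and of its substrate were not called. Gsk3a measured -2.55 and -2.64 in Ro and -2.81 and -2.69 in washout, a change of -0.15 ± 0.12 (adjusted p = 0.36), and Gsk3b measured -1.35 and -1.24 in Ro and -1.73 and -1.31 in washout, a change of -0.22 ± 0.15 (adjusted p = 0.28, 0.032 without washout 2). Ctnnb1, which encodes beta-catenin, measured 4.27 and 4.33 in Ro and 4.15 and 4.11 in washout, a change of -0.17 ± 0.069 (adjusted p = 0.10). Where its probes were averaged, Ctnnb1 changed by -0.23 and passed the test (adjusted p = 0.045). The test is on transcripts, and the inhibitor acts on the enzyme.

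Of 18 measured genes of the destruction complex and GSK-3, 3 rose and 1 fell (median change 0.032, -0.072 to 0.052 over the alternatives, 0 lower without Ro 1, 3 lower without washout 2). Amer2, a membrane protein that recruits APC, rose by 1.42 ± 0.13. Csnk1a1, the kinase that primes beta-catenin, rose by 0.56 ± 0.078 on 1 probe, while its other probes reached down to -0.0071. Of the GSK-3-binding proteins, Frat2 rose by 0.40 ± 0.076 (adjusted p = 0.076 without Ro 1) and Frat1 fell by 0.39 ± 0.069 (its probes from -0.39 to -0.14, adjusted p = 0.069 without Ro 1).

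Growth genes known as Wnt targets did not move together. Of 18 measured, 9 fell and 8 rose (median change -0.10, 5 higher without Ro 1), and with quantile normalization 8 fell and 9 rose. Tnfrsf19, a receptor of the TNF family, measured 6.48 and 6.54 in Ro, 2.90 and 2.76 in washout and 1.70 and 1.58 in control and fell by 3.68 ± 0.087 (12.8-fold, adjusted p = 3.9e-05). Fgf18, a growth factor, measured 3.00 and 3.05 in Ro, 0.047 and 0.34 in washout and -0.16 and 0.017 in control and fell by 2.83 ± 0.12. In the other direction Myc, a regulator of growth, measured 0.060 and 0.12 in Ro and 1.63 and 1.84 in washout and rose by 1.65 ± 0.10 (adjusted p = 0.00023). Its Ro arrays were the lowest of the 6 and its washout arrays the highest. Id2, an inhibitor of differentiation, rose by 0.83 ± 0.12. Ccnd1 was not analysed here.

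Several of the largest falls lay outside the named Wnt lists. Dapk2, a calmodulin-dependent kinase linked to cell death, measured 1.97 and 1.91 in Ro, -3.97 and -3.95 in washout and -4.16 and -4.26 in control and fell by 5.90 ± 0.075 (59.7-fold, adjusted p = 1.3e-05). Dio2, the deiodinase that turns thyroxine into active thyroid hormone and is a hallmark of astrocytes, measured 6.10 and 5.82 in Ro, 0.36 and 0.27 in washout and 0.62 and 0.61 in control and fell by 5.65 ± 0.11 (50-fold, adjusted p = 2.7e-05). Its Ro arrays stood far above both other groups, and its washout arrays were below control by 0.30 (adjusted p = 0.15). The chemokine receptor gene Cxcr6 measured 0.83 and 0.72 in Ro, -4.07 and -4.63 in washout and -4.72 and -4.11 in control and fell by 5.13 ± 0.26.

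Fabp3, which carries fatty acids in the cell, measured 3.47 and 3.41 in Ro, -0.20 and -0.43 in washout and 0.13 and 0.093 in control and fell by 3.75 ± 0.10. Calcrl, the receptor for adrenomedullin and calcitonin gene-related peptide, measured -0.050 and -0.22 in Ro, -4.24 and -4.43 in washout and -4.25 and -3.73 in control and fell by 4.20 ± 0.19. Cadps, which primes dense-core vesicles for release, measured 3.41 and 3.33 in Ro, -0.39 and -0.37 in washout and -0.86 and -1.06 in control and fell by 3.75 ± 0.093. In each the Ro arrays were high and both other groups low. Dapl1 fell by 5.09 ± 0.14, Adamts18 fell by 4.28 ± 0.22, and Rnase1 fell by 4.04 ± 0.16.

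Some genes were well above background in Ro and on neither washout array, so that only a bound is given. Among genes with a symbol that passed the test, 203 lower in washout and 71 higher had a bound. Over all 18758 features, called or not, 822 were well above background on no washout array and 119 on no Ro array. Of the non-control spots, 65.65% and 62.84% were well above background on the Ro arrays and 61.32% and 60.82% on the washout arrays. The part of this difference in the counts was not tested. Slc7a11, the cystine transporter that supplies glutathione synthesis, measured 0.80 and 0.59 in Ro and -5.54 and -4.86 in washout and was at least 46.2-fold lower in washout. Grem1, a secreted BMP antagonist, measured 0.32 and 0.24 in Ro and -6.15 and -6.25 in washout and was at least 34.6-fold lower. Cbln1, a secreted synaptic organiser, was at least 31.9-fold lower, a bound from the brighter of its 2 probes, while the difference was smaller on the other. Aox3, an aldehyde oxidase, Ankrd34b, and Ahrr, a repressor of the aryl hydrocarbon receptor, were at least 31.9-, 29.2- and 26.1-fold lower.

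In the other direction Shh, the Sonic hedgehog morphogen, was well above background in washout and on neither Ro array. It measured -5.58 and -5.71 in Ro, -1.47 and -1.29 in washout and -0.88 and -0.74 in control and was at least 15.1-fold higher in washout. Glycam1, a mucin-like protein, measured -5.82 and -5.35 in Ro and -1.61 and -1.84 in washout and was at least 11.8-fold higher. The organic anion transporter gene Slco1a6 and the transglutaminase gene F13a1 were at least 8.56- and 7.35-fold higher, and Dhrs2, Prl2a1, Prss2 and Acot5 at least 6.52-, 6.33-, 5.69- and 5.15-fold. Prss2, a trypsin, differed from the others in its control level: it measured -6.77 and -7.40 in Ro, -2.45 and -3.12 in washout and -6.63 and -7.34 in control, so that only the washout arrays were high.

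Among named genes well above background on all 4 arrays, the largest rise was that of Cnmd, a cartilage glycoprotein that limits vessel growth. It measured -4.22 and -4.19 in Ro, -0.18 and -0.0053 in washout and 0.017 and 0.11 in control, a change of 4.11 ± 0.090 (17.3-fold higher, adjusted p = 3.1e-05). Ucma, another cartilage matrix protein, measured -3.65 and -3.74 in Ro, -0.39 and -0.50 in washout and -0.35 and -0.55 in control and rose by 3.25 ± 0.10. The washout mean differed from the control mean by -0.16 for Cnmd and by 0.0019 for Ucma, and both Ro arrays lay far below.

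B3galt5, a galactosyltransferase, measured -4.09 and -3.78 in Ro, -0.17 and -0.38 in washout and -0.58 and -0.55 in control and rose by 3.66 ± 0.13 (adjusted p = 9.5e-05). The neuropeptide gene Npvf measured -4.99 and -4.74 in Ro, -1.20 and -1.39 in washout and -0.55 and -0.48 in control and rose by 3.56 ± 0.12, and remained below control by 0.78 (adjusted p = 0.022). Nppc, which encodes C-type natriuretic peptide, measured -4.29 and -3.83 in Ro, -0.97 and -0.96 in washout and -0.65 and -0.69 in control and rose by 3.10 ± 0.16. Npvf and Nppc thus had their lowest levels in Ro, whereas Cck, another peptide gene given below, had its highest there.

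Adra2a, the alpha-2A adrenergic receptor, measured -1.75 and -1.60 in Ro, 1.47 and 1.32 in washout and 1.58 and 1.37 in control and rose by 3.07 ± 0.11. Slco1a4, an organic anion transporter, measured -0.24 and -0.078 in Ro, 2.82 and 2.82 in washout and 2.40 and 2.31 in control and rose by 2.98 ± 0.086. Inmt, a methyltransferase, measured -2.71 and -2.38 in Ro, 0.30 and 0.10 in washout and 1.09 and 1.27 in control and rose by 2.75 ± 0.15, with washout still below control by 0.98 (adjusted p = 0.022). Rises of 2.82 (Cmtm5), 2.79 (Crabp1, which binds retinoic acid), 2.76 (Bbox1, of carnitine synthesis), 3.00 (Akap14) and 2.98 (Calml4) complete the set together with Nuak2 and Rassf4.

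Genes driven by SRF, a factor that answers to actin dynamics, rose together with genes of contraction and adhesion. Of 19 measured SRF targets, 16 rose and 1 fell (median change 0.92). Against control, 1 was higher and 2 lower in washout, and 1 higher and 16 lower in Ro. Srf itself measured 1.78 and 1.92 in Ro, 3.31 and 3.17 in washout and 2.45 and 2.45 in control and rose by 1.39 ± 0.088 (adjusted p = 0.00030), its washout arrays the highest of the 6. Cnn1, a calponin of smooth muscle, measured 4.93 and 5.04 in Ro, 6.69 and 6.55 in washout and 6.83 and 6.93 in control and rose by 1.63 ± 0.090 (adjusted p = 0.00021). Lmod1, which nucleates actin, measured 1.17 and 1.28 in Ro, 3.16 and 3.09 in washout and 3.27 and 3.45 in control and rose by 1.91 ± 0.094. Mylk, the myosin light chain kinase, was the member that fell, by 1.57 ± 0.086, with the changes of its 2 probes at -1.57 and -0.50.

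The CArG box, the motif bound by SRF, was found in the promoters of 7 of 16 SRF targets with a RefSeq promoter (43.8%), in 1.47% of all RefSeq windows and in 1.5% of those of the features tested. Both strands were searched. The promoters of Srf, Vcl and Cnn2 are printed with the box in capitals; Vcl, which encodes the focal adhesion protein vinculin (change 1.01 ± 0.11, with 0.52 on its other probe), and Cnn2, a calponin (change 0.87 ± 0.077), were chosen for the match after their values were seen. They lie at chr17:46556163-46556412 on the - strand (Srf, boxes from bases -82 and -62), chr14:20929148-20929397 on the + strand (Vcl, from -227) and chr10:79988350-79988599 on the + strand (Cnn2, from -56), all in GRCm38.p6.
Srf: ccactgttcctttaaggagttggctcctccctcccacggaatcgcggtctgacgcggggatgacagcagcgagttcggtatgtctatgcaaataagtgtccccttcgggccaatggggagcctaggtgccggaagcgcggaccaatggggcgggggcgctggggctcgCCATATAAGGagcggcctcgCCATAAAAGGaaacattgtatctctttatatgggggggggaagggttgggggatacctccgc
Vcl: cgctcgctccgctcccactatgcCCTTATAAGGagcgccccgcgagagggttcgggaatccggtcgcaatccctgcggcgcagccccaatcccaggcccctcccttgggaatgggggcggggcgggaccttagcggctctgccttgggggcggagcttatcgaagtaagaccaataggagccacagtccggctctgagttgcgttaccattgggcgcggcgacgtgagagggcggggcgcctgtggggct
Cnn2: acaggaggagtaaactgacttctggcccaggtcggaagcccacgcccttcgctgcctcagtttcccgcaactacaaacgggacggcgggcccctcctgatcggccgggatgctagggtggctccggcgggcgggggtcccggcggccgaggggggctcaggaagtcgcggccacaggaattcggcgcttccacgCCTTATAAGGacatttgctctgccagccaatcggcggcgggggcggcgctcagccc
SRF targets are known for this motif, and the matches are a description that says nothing of binding in these cells.

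YAP is a factor that responds to cell shape and tension and is restrained by the Hippo kinases. Of 23 measured YAP targets and Hippo components 10 rose and 4 fell (median change 0.18, 2 lower without washout 1). Ccn2, a matricellular protein and common YAP readout, measured 4.28 and 4.19 in Ro, 5.85 and 5.97 in washout and 6.30 and 6.33 in control and rose by 1.68 ± 0.081 (adjusted p = 0.00016), remaining below control by 0.40 (adjusted p = 0.041). Nuak2, a kinase, measured 0.45 and 0.61 in Ro, 3.52 and 3.44 in washout and 2.10 and 2.17 in control and rose by 2.95 ± 0.088 (adjusted p = 6.8e-05), to a level 1.34 above control (adjusted p = 0.0061). Tead4, a DNA-binding partner of YAP, measured -4.67 and -4.94 in Ro, -2.65 and -2.64 in washout and -3.87 and -3.61 in control and rose by 2.16 ± 0.13. Its relative Tead1 was on neither washout array well above background, and its Ro arrays lay far apart at -5.07 and -3.13; it was at least 1.66-fold lower (adjusted p = 0.052 without washout 1, 0.082 without washout 2). That bound rests on Ro 2, since Ro 1 lay below the level against which bounds are set. The ecto-nucleotidase Nt5e fell by 1.95 ± 0.10.

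Integrins and focal adhesion genes rose in 19 of 27 cases and fell in 2 (median change 0.54, 4 lower without washout 2). Lims2, an adaptor of the integrin-linked kinase complex, measured 0.29 and 0.42 in Ro, 2.53 and 2.41 in washout and 1.70 and 1.95 in control and rose by 2.11 ± 0.12. Tln2, a talin, rose by 1.41 ± 0.075 (its probes from 0.84 to 1.41), and the collagen receptor subunit Itga1 by 1.26 ± 0.071. The subunits that fell were Itga8, by 1.42 ± 0.088, and Itga4, which was well above background on neither washout array and at least 1.4-fold lower. With normexp background correction Itga4 changed by only -0.23 and was not called (adjusted p = 0.107).

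Pericytes and smooth muscle cells express several SRF targets, and their markers moved in the same samples. Of 7 measured pericyte and smooth muscle markers 4 rose and 1 fell (median change 0.46). Their summed level, in multiples of the 75th percentile, was 17.2 and 17.2 in Ro, 30.1 and 33.1 in washout and 40.4 and 37.9 in control, and Acta2 belongs to both lists. Abcc9, a defining marker, was not well above background. Of 11 meningeal fibroblast markers 1 rose and 6 fell (median change -0.35, 3 lower without Ro 2). The sum nevertheless moved from 18.9 and 19.7 in Ro to 34.3 and 32.6 in washout, since Ogn, the abundant member that rose (by 1.80 ± 0.10, named after its values were seen), outweighs the others. Against control, 1 of these markers was higher and 8 were lower in washout (median difference -1.24). In Ro 2 were higher and 7 lower than control (median difference -0.47). The part of these cell types in the rise of the contractile genes was not tested.

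Immediate early genes, which respond within minutes to growth factors, calcium or stress, rose. Of 27 measured, 16 rose and 2 fell (median change 0.65). Against control, 14 were higher and 1 lower in washout (4.19% and 6.01% of all features), and 8 were higher and 10 lower in Ro (20.9% and 22.8% of all features). The medium change at washout and the later harvest coincide with these values, and their part was not tested. Fos, Jun and Fosl1 had no usable probe outside the bright streak, and Egr3 and Nr4a3 were not well above background.

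Dusp1, a phosphatase that ends MAP kinase signals, measured 0.54 and 0.62 in Ro, 2.53 and 2.62 in washout and 1.95 and 2.04 in control and rose by 2.00 ± 0.080 (3.99-fold, adjusted p = 0.00011). Dusp6, a phosphatase for ERK, measured 3.89 and 3.97 in Ro, 5.62 and 5.58 in washout and 5.02 and 5.13 in control and rose by 1.67 ± 0.078 (adjusted p = 0.00015). Maff, a basic leucine zipper factor, measured 1.94 and 1.97 in Ro, 3.64 and 3.67 in washout and 3.04 and 3.01 in control and rose by 1.70 ± 0.067. All 3 were lowest in Ro and highest in washout, with no overlap among the groups.

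Egr1, a zinc finger factor, had another order. It measured 2.19 and 2.14 in Ro, 2.85 and 2.77 in washout and 0.48 and 0.37 in control, so that Ro was already above control by 1.74 (adjusted p = 0.00013), and washout was higher than Ro by 0.65 ± 0.079 (adjusted p = 0.0023). Npas4, an activity-regulated factor, rose by 1.45 ± 0.14, from -2.66 and -2.92 in Ro to -1.21 and -1.47 in washout. Ier3, which fell by 1.07 ± 0.085, measured 2.50 and 2.56 in Ro, 1.39 and 1.52 in washout and 0.20 and 0.30 in control and stayed above control, and the orphan nuclear receptor Nr4a2 fell by 0.75 ± 0.12.

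Feedback genes of FGF and ERK signalling changed both ways, with 6 of 16 higher and 4 lower (median change 0.17, -0.037 to 0.38 over the alternatives). Spry4, an inhibitor of receptor tyrosine kinase signals, measured -3.86 and -4.11 in Ro, -2.30 and -2.23 in washout and -4.29 and -3.83 in control and rose by 1.72 ± 0.17 (adjusted p = 0.0012), with washout the only high group. The growth factor Fgf1 measured -3.77 and -3.92 in Ro, -2.59 and -2.46 in washout and -1.10 and -1.29 in control and rose by 1.32 ± 0.11, remaining below control by 1.33. Il17rd, a feedback inhibitor of FGF receptors, measured 1.32 and 1.22 in Ro, -0.98 and -1.10 in washout and -0.97 and -0.92 in control and fell by 2.31 ± 0.083, although its other probe gave -0.56. Etv4, an ETS factor, fell by 1.08 ± 0.073, and Fgfrl1, a decoy FGF receptor, rose by 1.33 ± 0.10.

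Genes of motile cilia, the beating cilia of ependymal cells, rose. Of 31 measured, 26 rose, 24 of them at least 2-fold, and 1 fell (median change 1.44, 0 lower without Ro 2). In Ro, 26 were lower than control and 1 higher, and in washout 6 were higher and 1 lower.

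Foxj1, the master regulator of motile cilia, measured 3.00 and 3.21 in Ro, 4.54 and 4.42 in washout and 4.26 and 4.27 in control and rose by 1.38 ± 0.10 (adjusted p = 0.00041). Dnah9, a heavy chain of the outer dynein arm, measured -0.38 and -0.26 in Ro, 1.95 and 1.97 in washout and 0.77 and 0.59 in control and rose by 2.28 ± 0.094 (adjusted p = 0.00012), above control by 1.28 (adjusted p = 0.0061). Dnah11, another heavy chain, measured -3.59 and -3.37 in Ro, -0.93 and -1.01 in washout and -1.87 and -1.95 in control and rose by 2.51 ± 0.10. In both dynein genes washout was the highest group and Ro the lowest. Ccdc153 rose by 2.36 ± 0.11, and Dynlrb2, a dynein light chain, by 2.18 ± 0.11. Ccno, a cyclin-like regulator of basal body multiplication, was the member that fell, by 0.48 ± 0.10, from 0.28 and 0.45 in Ro to -0.054 and -0.18 in washout (adjusted p = 0.076 without Ro 2).

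All 9 measured ependymal markers, each also in the cilium list, rose at least 2-fold, and their summed level was 21.9 and 25.9 in Ro, 77.5 and 70.6 in washout and 65.1 and 63.6 in control. Whether ependymal cells changed in number or in transcript content was not tested.

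X-box motifs, which RFX factors bind at ciliary genes, were searched as the core site GTTGCCA on both strands (TGGCAAC where it lies on the other strand). The core site stood in 5 of 26 promoters of the cilium list (19.2%), against 3.66% of all windows and 3.98% of those of the features tested. The promoters of Tekt1, a tektin of the axoneme (change 1.76 ± 0.13), and Pifo (change 1.42 ± 0.13) are printed because the core site, in capitals, lies close to the start, from bases -15 and -13; both genes were chosen after their values were seen. Hydin, a protein of the axoneme named on the same ground (change 1.09 ± 0.21, adjusted p = 0.052 without washout 2), has it as close to the start, from base -14, and Ccno, the member that fell, holds it too, from base -219. In GRCm38.p6 the windows are chr11:72361883-72362132 on the - strand and chr3:106001498-106001747 on the - strand.
Tekt1: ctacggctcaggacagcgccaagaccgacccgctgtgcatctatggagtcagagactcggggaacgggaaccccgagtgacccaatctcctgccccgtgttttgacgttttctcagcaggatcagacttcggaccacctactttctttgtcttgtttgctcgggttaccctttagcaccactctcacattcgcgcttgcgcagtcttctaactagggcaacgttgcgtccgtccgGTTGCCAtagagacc
Pifo: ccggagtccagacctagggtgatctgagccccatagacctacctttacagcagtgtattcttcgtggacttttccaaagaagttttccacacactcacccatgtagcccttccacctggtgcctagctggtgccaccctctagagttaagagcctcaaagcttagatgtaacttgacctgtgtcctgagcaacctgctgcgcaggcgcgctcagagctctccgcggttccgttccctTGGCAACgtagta
A core site of 7 bases is short, and the match describes only these letters.

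**Figure D3:**
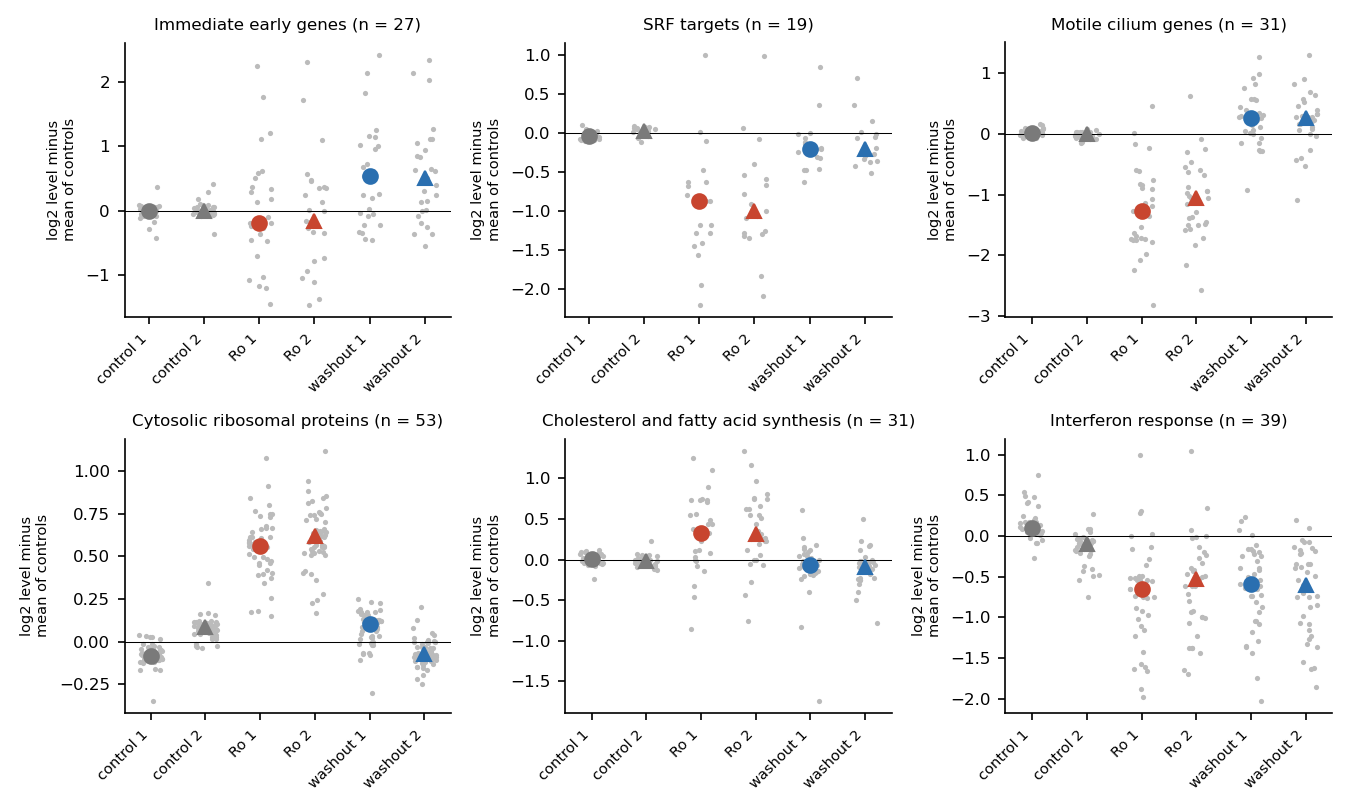
Log2 level of each measured gene minus the mean of its control arrays (small grey points) and the list median (large symbols) on each array, for 6 gene lists with the number of genes in the titles. In Ro the SRF and cilium lists lie below 0 and the ribosomal and cholesterol lists above it, the immediate early genes are highest in washout, and the interferon list is below 0 in both.

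Genes that define astrocytes held more rises than falls among filament and identity genes, and were divided among membrane, junction and glutamate genes. Of 26 measured filament and identity genes 14 rose and 5 fell (median change 0.42, 3 lower without Ro 1 or Ro 2). Gfap, the glial intermediate filament, measured 2.97 and 3.02 in Ro, 4.05 and 4.01 in washout and 4.06 and 3.89 in control and rose by 1.04 ± 0.086 (adjusted p = 0.00066). Fabp7, a lipid carrier of glial precursors, measured 5.41 and 5.43 in Ro, 7.32 and 7.21 in washout and 7.41 and 7.52 in control and rose by 1.85 ± 0.081 (3.6-fold, adjusted p = 0.00014). For both, Ro arrays were low and the other groups high. Id4, an inhibitor of differentiation, rose by 1.44 ± 0.075, the zinc transporter Slc39a12 by 1.41 ± 0.093 and the chaperone Clu by 1.14 ± 0.12. Thrsp and Cldn10 fell by 0.96 ± 0.076 and 0.75 ± 0.12.

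Of the membrane and junction genes, 8 of 20 rose and 5 fell (median change 0.17, 3 lower without Ro 2). Aqp4, the water channel of astrocyte endfeet, measured 2.10 and 2.17 in Ro, 3.22 and 3.64 in washout and 3.99 and 4.01 in control and rose by 1.29 ± 0.15 (adjusted p = 0.0018). Slc4a4, a sodium bicarbonate transporter, rose by 1.45 ± 0.17. The connexins went the other way: Gjb2 measured 0.53 and 0.49 in Ro, -2.99 and -3.11 in washout and -3.69 and -2.72 in control and fell by 3.56 ± 0.31 (adjusted p = 0.00074), and Gjb6 measured -0.36 and -0.32 in Ro, -3.20 and -2.93 in washout and -3.64 and -3.95 in control and fell by 2.73 ± 0.14 (adjusted p = 0.00018). Gja1 was measured only by probes in the bright streak.

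Glutamate and glutamine genes were split, with 7 of 19 higher and 9 lower (median change -0.080, -0.19 to 0.0075 over the alternatives, 5 lower without Ro 1 or Ro 2). Slc1a2, the main glutamate transporter of astrocytes, measured 1.57 and 1.74 in Ro, 0.71 and 0.59 in washout and 0.53 and 0.37 in control and fell by 1.01 ± 0.10 (its probes from -1.75 to -1.01, adjusted p = 0.0013). The glutamine and neutral amino acid transporter Slc1a5 measured 0.79 and 0.75 in Ro, -1.66 and -1.91 in washout and -1.71 and -1.75 in control and fell by 2.55 ± 0.10. Grm5 and Grm3, both metabotropic glutamate receptors, moved in opposite directions. Grm5 measured -5.14 and -5.44 in Ro, -2.17 and -2.20 in washout and -1.45 and -1.34 in control and rose by 3.11 ± 0.12 (adjusted p = 0.00011), with 1 of its Ro arrays well above background. Grm3 measured 0.52 and 0.55 in Ro, -1.06 and -1.23 in washout and -2.30 and -2.58 in control and fell by 1.68 ± 0.12, remaining above control by 1.29 (adjusted p = 0.0088). Gria1, an AMPA receptor subunit, rose by 2.37 ± 0.088.

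Reactive astrocyte genes rose in 15 of 27 cases and fell in 4 (median change 0.47, 2 lower without Ro 1). The complement component C3 measured -4.69 and -3.43 in Ro, -1.47 and -1.90 in washout and -3.04 and -3.35 in control and rose by 2.38 ± 0.42 (adjusted p = 0.0083), with its Ro arrays far apart. Ch25h, which makes 25-hydroxycholesterol, measured -3.28 and -3.10 in Ro, -1.17 and -1.38 in washout and -0.40 and -0.67 in control and rose by 1.91 ± 0.14. Steap4, a metalloreductase, rose by 1.54 ± 0.21, with washout above control by 1.24 (adjusted p = 0.027). Amigo2, an adhesion protein, fell by 1.66 ± 0.12, and Sphk1, a sphingosine kinase, by 0.74 ± 0.089.

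Markers of other glia moved in the same samples. Of 15 microglial markers 8 rose and 1 fell (median change 0.47, 4 higher without Ro 1 or washout 1), and their summed level was 29.6 and 35.4 in Ro, 37 and 34 in washout and 35.4 and 34.3 in control. The defining markers P2ry12 and Ptprc were not well above background. Of 6 oligodendrocyte precursor markers 4 rose and 1 fell (median change 0.94, 0 lower without Ro 2), with sums of 6.48 and 6.53 in Ro, 16.5 and 15.6 in washout and 24.8 and 25.2 in control. The 9 measured astrocyte markers, of which 7 rose and 1 fell, summed to 123 and 130.4 in Ro and 189 and 179 in washout.

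Of 6 oligodendrocyte markers 1 rose, and of 8 neuronal markers 2 rose and 1 fell (median change 0.091, -0.014 to 0.21 over the alternatives, 1 higher without Ro 1, 1 higher and 2 lower without washout 2). The neuronal sums were 7.17 and 7.55 in Ro and 11.2 and 11 in washout, and Snap25 and Slc17a7 were not well above background. Of 4 endothelial markers 1 rose and 2 fell, while Pecam1, Cdh5 and Cldn5 were not well above background. The part of these cells in the astrocyte and inflammatory values was not tested.

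**Figure D4:**
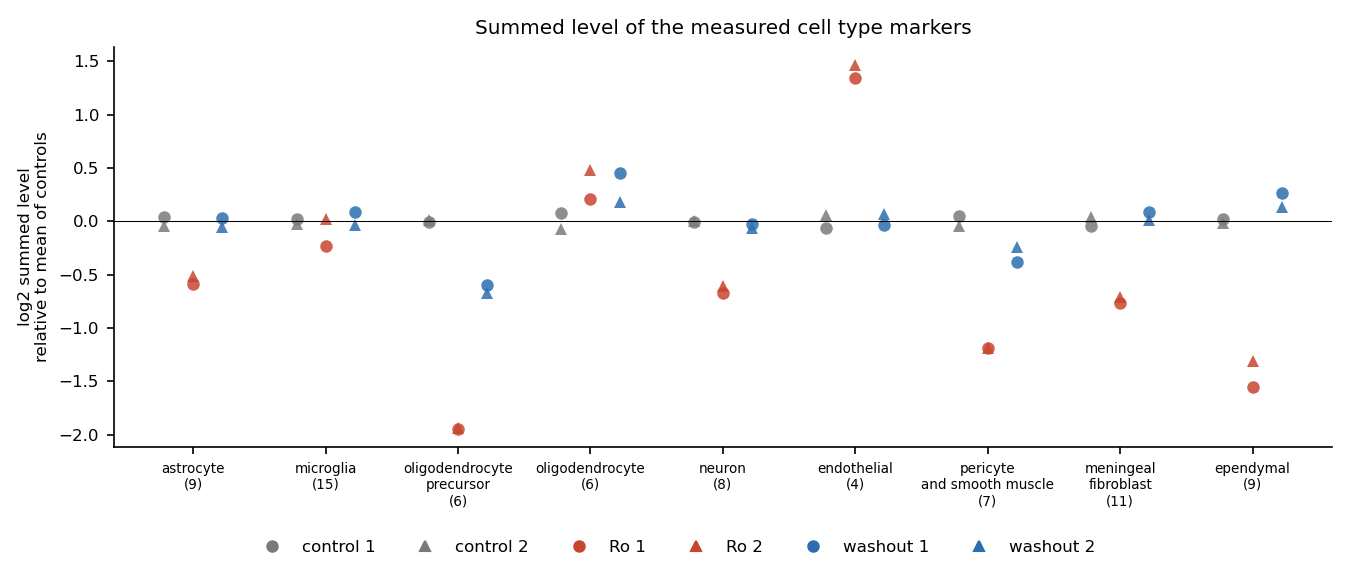
Log2 of the summed level of each cell type marker list relative to the mean of the control arrays, with 1 point per array and the number of measured markers in parentheses. Ro arrays (red) lie lowest for the astrocyte, oligodendrocyte precursor, neuron, pericyte, meningeal fibroblast and ependymal lists, and highest for the endothelial list.

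Genes of protein synthesis fell by small amounts. Of 53 measured cytosolic ribosomal protein genes 49 fell (median change -0.58, 26 lower without Ro 1, 23 lower without Ro 2), with a median of -0.030 over all features and a range of the members from -1.12 to -0.23. With a 1.2-fold minimum in the test 21 fell, and over all alternatives the list median lay between -0.68 and -0.47. The list's median difference from control was 0.00786 in washout and 0.589 in Ro, where 49 were higher.

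Rps6, a protein of the small subunit, measured 4.99 and 5.03 in Ro, 4.26 and 4.15 in washout and 4.18 and 4.11 in control and fell by 0.80 ± 0.077 (adjusted p = 0.0011). Rpl14, of the large subunit, measured 1.70 and 1.74 in Ro, 0.65 and 0.56 in washout and 0.65 and 0.60 in control and fell by 1.12 ± 0.074 (adjusted p = 0.00034). In both, Ro arrays were high and the washout arrays lay within the range of the controls or close to it. Rpl30 and Rps28 fell by 0.98 ± 0.27 (adjusted p = 0.11 without Ro 1, 0.11 without Ro 2, 0.14 without washout 1) and 0.77 ± 0.11. Ribosomal protein genes have many processed copies, whose transcripts a probe may not tell apart.

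Of 35 translation and nucleolar genes 22 fell (median change -0.40, 10 lower without Ro 1, 11 lower without Ro 2), and the highest change, which did not pass the test, was 0.18. Eef1b2, of the elongation complex, measured 6.31 and 6.29 in Ro, 5.59 and 5.43 in washout and 5.54 and 5.48 in control and fell by 0.79 ± 0.085. Npm1, the nucleolar chaperone nucleophosmin, measured 5.58 and 5.49 in Ro, 4.84 and 4.80 in washout and 4.76 and 4.79 in control and fell by 0.71 ± 0.072. Dkc1, which modifies ribosomal RNA, fell by 0.67 ± 0.17 (its probes from -0.67 to -0.37, adjusted p = 0.099 without Ro 1, 0.082 without Ro 2). 

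Subunits of oxidative phosphorylation fell in 17 of 43 cases (39.5%) (median change -0.29, 6 lower without Ro 1, 3 lower without Ro 2, 9 lower without washout 2), beside 21.6% of all features that fell. The count ranged from 2 with the 1.2-fold minimum to 31 with the authors' table. Cycs, cytochrome c, fell by 0.68 ± 0.084 (its probes from -0.68 to -0.35), and the subunits Cox6c, Atp5c1 and Atp5g1 by 0.60 ± 0.11 (adjusted p = 0.054 without Ro 2), 0.57 ± 0.080 and 0.56 ± 0.11 (adjusted p = 0.055 without Ro 1, 0.064 without Ro 2).

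Lipid synthesis genes fell as well. Of 31 measured genes of cholesterol and fatty acid synthesis 19 fell and 2 rose (median change -0.40, 1 higher without Ro 1, washout 1 or washout 2, 1 higher and 11 lower without Ro 2). Fasn, the fatty acid synthase, measured 6.78 and 6.85 in Ro, 5.78 and 5.66 in washout and 5.66 and 5.71 in control and fell by 1.09 ± 0.079 (adjusted p = 0.00044). Mvd, of the mevalonate pathway, measured 1.36 and 1.44 in Ro, 0.44 and 0.23 in washout and 0.59 and 0.66 in control and fell by 1.07 ± 0.10. Insig1, a sterol sensor, measured 0.60 and 0.65 in Ro, -0.72 and -0.40 in washout and 0.15 and 0.060 in control and fell by 1.19 ± 0.12, to below control by 0.67 (adjusted p = 0.035). Hmgcs1, an early enzyme of the pathway, measured 5.41 and 5.37 in Ro and 5.22 and 5.17 in washout and changed by -0.20 ± 0.068 without passing the test (adjusted p = 0.068). It passed, at -0.30, in the authors' deposited table (adjusted p = 0.033), at -0.26 with normexp (adjusted p = 0.042) and with a variance trend (adjusted p = 0.041), and its other probe gave -0.50. The desaturases Fads2 and Fads1 rose by 0.72 ± 0.081 and 0.38 ± 0.10 (adjusted p = 0.13 without Ro 1, 0.12 without Ro 2, 0.094 without washout 1, 0.086 without washout 2).

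Among lipoprotein and sterol export genes 6 of 16 rose and 5 fell (median change 0.0045, -0.10 to 0.029 over the alternatives, 3 lower without Ro 1). Vldlr, a lipoprotein receptor, measured 2.45 and 2.22 in Ro, 0.51 and 0.56 in washout and 1.14 and 1.19 in control and fell by 1.80 ± 0.10. Lcat, which esterifies cholesterol on lipoproteins, measured -1.38 and -1.27 in Ro, 0.18 and 0.11 in washout and 0.41 and 0.26 in control and rose by 1.47 ± 0.088. Apoc1 and the transporter Abcg4 rose by 0.98 ± 0.13 and 0.74 ± 0.094, and Npc1 fell by 0.63 ± 0.11.

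Amino acid genes that ATF4 controls fell in 16 of 30 cases and rose in 2 (median change -0.42, 1 higher without any 1 array). Slc7a5, the large neutral amino acid transporter, measured 0.63 and 0.69 in Ro, -0.25 and -0.37 in washout and 0.0049 and -0.025 in control and fell by 0.97 ± 0.078 (adjusted p = 0.00058). Asns, asparagine synthetase, fell by 0.82 ± 0.078, and the stress protein Nupr1 by 0.83 ± 0.11. Slc3a2, the partner chain of Slc7a5 and Slc7a11, rose by 0.68 ± 0.080, from 4.79 and 4.93 in Ro to 5.58 and 5.51 in washout. Atf4 itself rose by 0.24 ± 0.074 (adjusted p = 0.049), a call that was lost without any 1 array (adjusted p from 0.067 to 0.25).

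Glutathione and NRF2 genes held 12 falls and 2 rises among 30 (median change -0.17, 4 higher without washout 2). Beside Slc7a11, the glutathione transferase Gsta1 fell by 2.42 ± 0.14, from -2.14 and -2.24 in Ro to -4.80 and -4.42 in washout, with 1 washout array well above background. Another transferase, Gstm1, measured 7.14 and 7.28 in Ro, 8.42 and 8.37 in washout and 8.39 and 8.63 in control and rose by 1.19 ± 0.11. Osgin1, an oxidative stress gene, measured -0.14 and -0.021 in Ro, 2.06 and 1.86 in washout and 1.69 and 1.86 in control and rose by 2.04 ± 0.11. The largest changes of the list thus had both signs.

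Glycolysis and hypoxia genes were split, with 11 of 33 higher and 10 lower (median change -0.0027, -0.11 to 0.074 over the alternatives, 5 lower without control 1 or control 2, 2 lower without Ro 1, 3 lower without Ro 2 or washout 2). Egln3, a prolyl hydroxylase induced by hypoxia, measured -1.35 and -1.31 in Ro, 0.83 and 0.65 in washout and 0.53 and 0.46 in control and rose by 2.07 ± 0.089 (adjusted p = 0.00013). Slc2a1, the glucose transporter GLUT1, measured 2.91 and 3.02 in Ro, 4.21 and 4.19 in washout and 4.14 and 4.06 in control and rose by 1.23 ± 0.078. Ldhb rose by 1.14 ± 0.087 and the regulator Pfkfb3 by 0.95 ± 0.093, while the enolases Eno1 and Eno2 fell by 0.63 ± 0.072 and 0.71 ± 0.077. In the authors' deposited table, 12 were lower and 10 were higher.

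Glycogen synthase is the substrate that gave GSK-3 its name, and 7 of 15 glycogen genes rose and 2 fell (median change 0.20, 1 lower without Ro 1, Ro 2, washout 1 or washout 2). Phkg1, a subunit of phosphorylase kinase, measured -2.60 and -2.53 in Ro, -0.73 and -0.89 in washout and -1.17 and -1.19 in control and rose by 1.75 ± 0.085 (adjusted p = 0.00016). Ugp2, which makes UDP-glucose, measured 1.99 and 2.07 in Ro, 3.30 and 3.05 in washout and 3.42 and 3.38 in control and rose by 1.14 ± 0.10. Brain glycogen phosphorylase, Pygb, rose by 1.05 ± 0.14, and the glycogen targeting subunit Ppp1r3c by 1.00 ± 0.11. The synthase Gys1 fell by 0.28 ± 0.069 (adjusted p = 0.024, 0.097 without Ro 1, 0.15 without Ro 2, 0.070 without washout 1, 0.056 without washout 2).

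BMP, TGF-beta and Id genes rose in 14 of 29 cases and fell in 7 (median change 0.23, 9 higher without Ro 1 or Ro 2). The ligand Bmp6 measured 0.29 and 0.37 in Ro, 2.02 and 2.06 in washout and 2.28 and 2.02 in control and rose by 1.71 ± 0.11 (adjusted p = 0.00030). Fst, the activin antagonist follistatin, measured 1.83 and 1.87 in Ro, 0.039 and 0.32 in washout and 0.27 and 0.45 in control and fell by 1.67 ± 0.12, and the ligand Tgfb2 fell by 1.57 ± 0.090. With Grem1, which is given above, 2 antagonists of the family thus fell.

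In the Notch pathway 8 of 21 genes rose and 5 fell (median change 0.10, -0.015 to 0.20 over the alternatives, 2 lower without Ro 1). Hes1, a Notch target and repressor, measured -3.55 and -3.76 in Ro, -1.90 and -1.54 in washout and -3.36 and -3.74 in control and rose by 1.93 ± 0.18 (adjusted p = 0.0010); only its washout arrays were high, above control by 1.83 (adjusted p = 0.010). Lfng, a glycosyltransferase that modifies Notch, measured -2.26 and -2.15 in Ro, 0.14 and -0.024 in washout and -0.31 and -0.50 in control and rose by 2.27 ± 0.11. Nrarp, a Notch-induced inhibitor, measured -0.93 and -1.10 in Ro, -3.84 and -3.50 in washout and -2.58 and -2.77 in control and fell by 2.66 ± 0.14, to below control by 1.00 (adjusted p = 0.020). The ligand gene Dll4 measured -4.54 and -5.08 in Ro, was well above background on neither washout array and was at least 1.01-fold lower (adjusted p = 0.074 without Ro 1), a bound that rests on Ro 1.

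Growth factor genes were split, with 10 of 29 higher and 11 lower (median change 0.046, -0.11 to 0.095 over the alternatives). Ptn, pleiotrophin, measured 7.17 and 7.28 in Ro, 4.22 and 4.58 in washout and 4.24 and 4.37 in control and fell by 2.83 ± 0.14 (7.11-fold, adjusted p = 0.00016). Pdgfb measured -2.33 and -2.21 in Ro, -0.15 and -0.12 in washout and -0.46 and -0.36 in control and rose by 2.14 ± 0.082. The binding protein Igfbp5 rose by 1.83 ± 0.069 and the neurotrophin Ntf3 by 1.66 ± 0.24. In thyroid hormone and retinoid handling 4 of 22 rose and 8 fell (median change -0.13). Aldh1a1, which makes retinoic acid, measured 6.24 and 6.38 in Ro, 3.79 and 3.71 in washout and 3.54 and 3.46 in control and fell by 2.56 ± 0.085, and Cyp26b1, which degrades it, measured -1.73 and -1.99 in Ro, 0.050 and 0.12 in washout and -0.48 and -0.19 in control and rose by 1.94 ± 0.14.

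Of 23 regulators of neural progenitors 6 rose and 7 fell (median change 0.037, -0.067 to 0.086 over the alternatives), or 26.1% and 30.4%, beside 21.8% and 21.6% of all features. Neurog2, a proneural factor, was on neither washout array well above background: it measured -1.57 and -1.54 in Ro, -6.91 and -6.17 in washout and -7.57 and -7.52 in control and was at least 9.7-fold lower. Sox8, a glial factor, measured -2.73 and -2.84 in Ro, -0.85 and -0.90 in washout and 0.19 and 0.38 in control and rose by 1.91 ± 0.10, remaining below control by 1.16 (adjusted p = 0.0076). Sox4 and Emx2 fell by 1.12 ± 0.14 and 0.99 ± 0.10, and Dlx2 rose by 0.88 ± 0.10.

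Matrix genes showed no common direction. Of 27 collagen and basement membrane genes 6 rose and 7 fell (median change -0.066, -0.17 to 0.088 over the alternatives, 4 lower without Ro 1), which is near the 21.8% and 21.6% of all features. Of 34 matricellular and proteoglycan genes 12 rose and 14 fell (median change -0.14, 6 higher without Ro 1, 9 lower without Ro 2). Nid2, a nidogen, measured 1.76 and 1.79 in Ro, 3.83 and 3.88 in washout and 3.62 and 3.70 in control and rose by 2.08 ± 0.072 (adjusted p = 9.4e-05). Lama4, a laminin chain, measured 1.23 and 1.26 in Ro, -1.45 and -1.54 in washout and -2.68 and -2.72 in control and fell by 2.74 ± 0.072, remaining above control by 1.21 (adjusted p = 0.0061). Fmod, the collagen-binding fibromodulin, measured 0.73 and 0.80 in Ro, 3.13 and 3.14 in washout and 3.30 and 3.20 in control and rose by 2.37 ± 0.076.

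Thbs4, a thrombospondin, measured -0.63 and -0.52 in Ro, -3.67 and -4.19 in washout and -3.95 and -3.86 in control and fell by 3.36 ± 0.18. Omd, osteomodulin, rose by 2.06 ± 0.10, and Fbln1, a fibulin, fell by 1.97 ± 0.11. Col5a3 and Col4a3 rose by 1.56 ± 0.10 and 1.69 ± 0.26, the latter with 1 Ro array well above background. Of 29 matrix proteases and inhibitors 10 rose and 10 fell (median change -0.037, -0.14 to 0.15 over the alternatives). The collagenase gene Mmp13 and the stromelysin gene Mmp10 were well above background on neither washout array and at least 2.48- and 3.31-fold lower. Inhibitors were on both sides. The inhibitor Reck fell by 1.72 ± 0.069, and Timp4, another inhibitor, rose by 1.65 ± 0.10.

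Cadherins, Ephs and semaphorins rose in 18 of 39 cases and fell in 12 (median change 0.13). The guidance cue Sema3e measured -2.05 and -1.97 in Ro, 0.11 and 0.048 in washout and -0.0012 and -0.069 in control and rose by 2.09 ± 0.074. Epha7 and Efnb3 went the other way. The receptor gene Epha7 measured -1.07 and -1.33 in Ro, -3.59 and -3.34 in washout and -3.16 and -3.18 in control and fell by 2.27 ± 0.13, and Efnb3, an ephrin, measured 0.20 and 0.35 in Ro, -1.59 and -1.80 in washout and -1.85 and -1.97 in control and fell by 1.97 ± 0.11. Epha3 fell by 2.36 ± 0.66 (adjusted p = 0.037) with its washout arrays far apart, at -6.69 and -4.80, and 1 of them well above background, and was not called without any 1 array other than washout 2 (adjusted p from 0.052 to 0.14).

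Of 25 granins, neuropeptides and receptors 12 rose and 3 fell (median change 0.29). Cck, cholecystokinin, measured -1.26 and -1.23 in Ro, -4.59 and -5.08 in washout and -3.32 and -2.82 in control and fell by 3.58 ± 0.22, to below control by 1.76 (adjusted p = 0.015), with 1 washout array well above background. Adrb1, the beta-1 adrenergic receptor, measured 0.49 and 0.51 in Ro, 2.51 and 2.44 in washout and 1.93 and 2.13 in control and rose by 1.98 ± 0.092. The ATP-gated channel gene P2rx7 fell by 1.05 ± 0.083.

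Potassium and calcium channels rose in 9 of 24 cases and fell in 6 (median change 0.17). Cacna1h, a T-type calcium channel, measured -3.54 and -3.47 in Ro, -2.10 and -2.08 in washout and -2.04 and -2.03 in control and rose by 1.41 ± 0.069. Kcna4 was well above background on neither Ro array and at least 2.79-fold higher in washout. The two-pore channel Kcnk2 rose by 1.33 ± 0.16, and the calcium-activated channel Kcnn2 and the subunit Kcnmb4 fell by 1.36 ± 0.079 and 1.29 ± 0.083.

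Microtubule proteins, among which are GSK-3 substrates, and death-associated kinases rose in 10 of 23 cases and fell in 5 (median change 0.23, 3 lower without control 1, control 2, Ro 1 or Ro 2). Stmn2, a stathmin that binds tubulin, measured 0.11 and 0.18 in Ro, 2.49 and 2.32 in washout and 2.38 and 2.36 in control and rose by 2.26 ± 0.086 (adjusted p = 0.00011). Dpysl5, of the CRMP family, and the tubulin gene Tubb2b rose by 1.24 ± 0.091 and 1.13 ± 0.12, and Stmn4 fell by 0.88 ± 0.12.

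Cell cycle genes fell in 12 of 34 cases and rose in 5 (median change -0.090, 2 lower without Ro 1 or Ro 2, 6 lower without washout 2), in cultures that had been treated with AraC. Cdk4 measured 1.93 and 1.96 in Ro, 1.27 and 1.21 in washout and 1.28 and 1.14 in control and fell by 0.71 ± 0.080 (adjusted p = 0.0018), and the mitotic cyclin Ccnb1 fell by 0.60 ± 0.091. Ccnd3, a D cyclin, and Cdc6, of replication licensing, rose by 0.77 ± 0.13 and 0.65 ± 0.095 (its probes from 0.28 to 0.65). The surplus of falls turned under several settings: without Ro 1, without Ro 2 or with the 1.2-fold minimum 2 fell and 4 rose, and with no filter on dim probes 3 fell and 4 rose.

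Of 26 p53 targets and CDK inhibitors 15 fell and 4 rose (median change -0.38, 2 higher and 8 lower without Ro 1, 2 higher and 7 lower without Ro 2). Gadd45a, a growth arrest gene, measured 4.31 and 4.30 in Ro, 2.45 and 2.53 in washout and 2.61 and 2.62 in control and fell by 1.81 ± 0.070 (adjusted p = 0.00011). Its relatives Gadd45g and Gadd45b rose, by 1.53 ± 0.092 and 1.10 ± 0.085. Perp, a membrane protein induced by p53, fell by 1.29 ± 0.078, to below control by 0.74 (adjusted p = 0.011).

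Of 39 interferon response genes 8 rose and 7 fell (median change 0.010, -0.095 to 0.12 over the alternatives, 3 higher and 3 lower without Ro 1, 4 higher and 4 lower without Ro 2, 5 higher and 4 lower without washout 1), or 20.5% and 17.9%, near the 21.8% and 21.6% of all features. Against control, 17 of the 39 were lower in washout (6.01% of all features), and 26 were lower and 2 higher in Ro (22.8% and 20.9%). Ifit3 measured 2.31 and 2.54 in Ro, 3.38 and 3.34 in washout and 4.43 and 3.94 in control and rose by 0.93 ± 0.18 (adjusted p = 0.057 without Ro 1), and the GTPase gene Igtp measured 3.68 and 3.72 in Ro, 2.69 and 2.54 in washout and 2.88 and 2.47 in control and fell by 1.08 ± 0.15. Oas1a fell by 1.00 ± 0.17, and Zbp1 was well above background on neither washout array and at least 1.57-fold lower (adjusted p = 0.080 without Ro 1, 0.16 without Ro 2, 0.079 without washout 1, 0.15 without washout 2).

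Of 20 inflammatory mediators 6 rose and 7 fell (median change -0.18, -0.070 with bounds, 4 lower without Ro 1, Ro 2 or washout 2). The chemokine Cxcl12 measured -2.44 and -2.46 in Ro, -1.15 and -1.27 in washout and -1.06 and -0.99 in control and rose by 1.25 ± 0.079 (its probes from 0.80 to 1.25), and Ptgs1, a cyclooxygenase, rose by 1.72 ± 0.14. Il11 fell by 1.35 ± 0.10, and the chemokine Cxcl5 was well above background on neither washout array and at least 1.3-fold lower.

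Heat shock and unfolded protein genes fell in 13 of 33 cases and rose in 7 (median change -0.15, 3 higher and 8 lower without Ro 1, 4 higher and 7 lower without Ro 2). Hspa1b measured 0.28 and 0.24 in Ro, -0.56 and -0.58 in washout and -0.45 and -0.45 in control and fell by 0.83 ± 0.066, and its near-identical copy Hspa1a, which a probe may not tell from it, fell by 0.72 ± 0.070. Cryab, a small heat shock protein of astrocytes, rose by 0.93 ± 0.14, and the J-domain protein Dnajb4 by 0.78 ± 0.071 (its probes from 0.51 to 0.78). Lysosome and autophagy genes fell in 11 of 30 cases and rose in 5 (median change -0.22, 1 higher and 4 lower without Ro 1, 2 higher and 3 lower without Ro 2, 2 higher without washout 1). The hydrolases Gla, Neu1 and Hexa fell by 0.70 ± 0.11, 0.64 ± 0.11 and 0.55 ± 0.093 (adjusted p = 0.050 without Ro 2), and Ctsb and Wipi1 rose by 0.53 ± 0.085 (its probes from 0.35 to 0.53) and 0.48 ± 0.089 (its probes from 0.18 to 0.48, adjusted p = 0.066 without Ro 1).

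Of 20 circadian clock genes 6 rose and 3 fell (median change 0.094, -0.011 to 0.17 over the alternatives). Nfil3, a repressor, measured 0.72 and 0.68 in Ro, 2.18 and 2.12 in washout and 1.30 and 1.28 in control and rose by 1.45 ± 0.070 (adjusted p = 0.00016), above control by 0.86 (adjusted p = 0.0073). Per2 rose by 0.90 ± 0.10 (its probes from 0.20 to 0.90), and Rora and Rorb fell by 0.93 ± 0.14 and 0.72 ± 0.10. Harvest hours are not given in the labels, and their part was not tested.

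**Figure D5:**
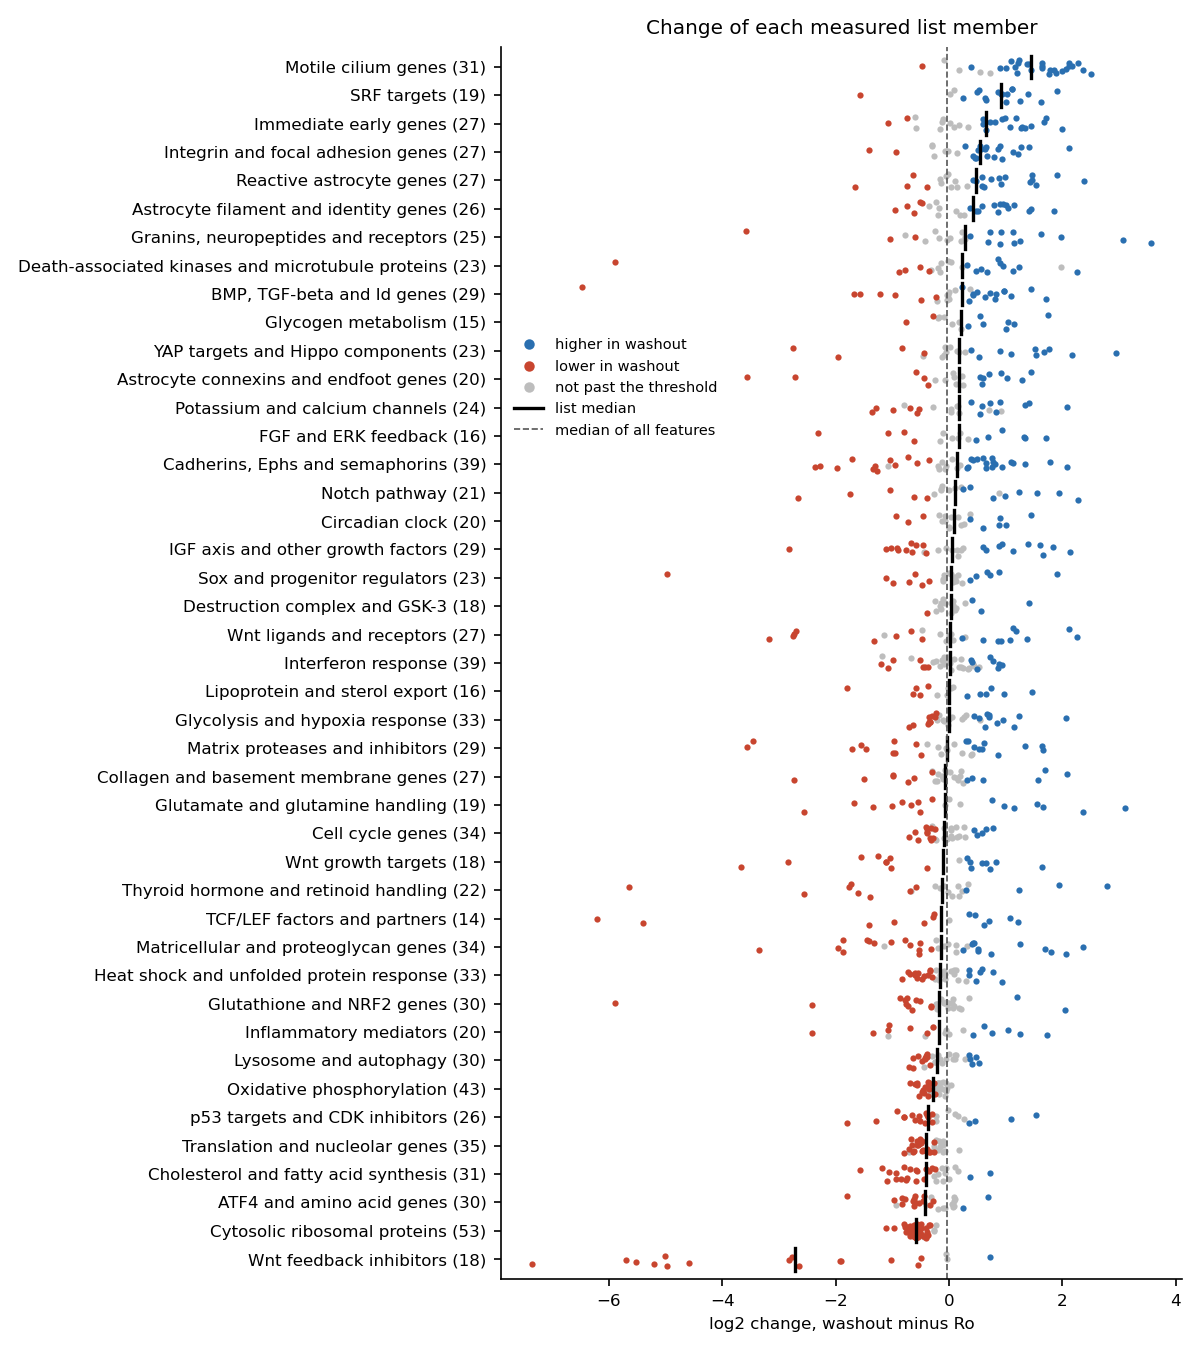
Log2 change from Ro to washout (x axis) of each measured member of 43 gene lists, ordered by list median (black bar), with the number of measured members in parentheses and the median of all features as a dashed line. The Wnt feedback inhibitors lie farthest to the left and the motile cilium genes farthest to the right, and the medians of most lists lie near the dashed line.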

How the data were processed

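RNA of 6 cultures was hybridised to one-colour Agilent mouse arrays. Per the file headers, the authors scanned the arrays with Agilent Feature Extraction 10.5.1.1, while the submitters' processing notes name version 10.1, and the deposited processed intensity is corrected for background within each array. The deposited table of all samples holds ratios on a linear scale, with column medians from 0.871 to 0.987, whose centre the authors do not state. With both centred on each feature's mean, it correlated across 18758 features with the scanner values of the same array at 0.9983 to 0.9999.

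Here log2 of the processed intensity minus the array's 75th percentile was used. Of 41174 non-control probes, 106 with outlier flags and 1917 in the bright streak were left out. The streak was found in windows of 15 by 15 spots that held at least 5 dim spots. In them, the median difference of the dim spots from the slide 1 arrays was raised. It lay more than 1 (log2) above that of all dim spots of the same washout array. Probes well above background on both Ro or both washout arrays were kept (24449 probes), and the probe with the highest mean stood for a gene, which gave 18758 features, 12334 of them with a gene symbol. Symbols were assigned by matching the accession of each probe to RefSeq transcripts, and probes without a unique match got none.

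Groups were compared with limma 3.58.1 (R 4.3.3) over all 6 arrays with 3 group means and Benjamini-Hochberg adjustment. There were 3 residual degrees of freedom, and limma's prior added 2.35. An exact permutation test of 2 against 2 arrays cannot give a two-sided p under 0.333. A bound ("at least N-fold") sets the bright group's mean against, per array, the higher of the lowest signal among probes well above background and the dim probe's own signal. It is given where a group had both arrays below that level at all of a gene's probes.

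Genes named are the 15 largest rises and falls among genes well above background on all 4 arrays, up to 8 bounds per direction, up to 4 called members of each list with the largest change and up to 2 of the opposite direction, and a few genes of the inhibitor's pathway and of astrocytes in every case. Some genes that the rule names are not reported here. Members and lists were chosen with earlier results of these data known. Promoters came from RefSeq (GRCm38.p6). Replicate numbers were not used to pair the samples in the main fit, since nothing in the labels says that they do. Deviations of same-numbered arrays correlated at -0.151 for Ro and washout, -0.126 for Ro and control and 0.107 for washout and control. With 2 arrays per group, such values cannot show whether cultures were paired. Figures were drawn with matplotlib 3.10.9 (Python 3.11.15).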

Additional observations from a re-analysis of the deposited data

How the results depend on the processing

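The counts of 4085 features higher and 4051 lower, and of 1159 and 956 changed at least 2-fold, stayed within 1.5 times under the planned settings that keep all arrays, except for the following 4. Without the filter on dim probes 2649 features were lower, with 31380 tested. A test against a 1.2-fold minimum gave 2354 higher and 1942 lower. Changes of at least 2-fold numbered 638 higher and 464 lower with normexp background correction, and 581 lower among features above background on all 4 arrays. Leaving out 1 array at a time gave 2623 to 3902 features higher and 2215 to 3875 lower, and 1142 to 1225 higher and 910 to 1059 lower at least 2-fold, and the lone array of a group was then assumed to vary like the others. A replicate block gave 3539 features higher and 3393 lower, although nothing in the labels says that the numbers pair the samples. With the Ro numbers exchanged, a pairing chosen after seeing the data, it gave 4155 and 4093. Of the 237 called genes named in the text, 216 kept their call under every alternative that measured them and 21 lost it under at least 1, and 0 of the 241 genes changed sign past the threshold. Calls gained by Ctnnb1, Gsk3b and Hmgcs1 are given beside their values. Depth of signal limits the genes below background, whose differences are given as bounds. With normexp Itga4, Tead1 and Zbp1 changed by -0.23, -0.63 and -0.35, which is less than their bounds, and lost their calls.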
